A study of Homo sapiens with 10 samples.

Results

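MAGE genes of type I and PRAME are cancer-testis antigens, genes read in the germ line and in many tumours but in few other adult tissues. The 8 genes MAGEA1, MAGEA4, MAGEA8, MAGEA10, MAGEA11, MAGEA12, MAGEB2 and PRAME were taken by name, and every probe set of the array that names only 1 of them was used, which gave 1 probe set for each gene. They are 8 of the 19775 genes, and their probe sets 8 of the 41091, that are named singly on the array. RNA was hybridised to 10 Affymetrix human arrays, 1 for each of 5 treatments in each of 2 non-small cell lung cancer lines. HTB-182, which the series title calls H520, comes from a squamous tumour, and A549 from an adenocarcinoma.

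Before the 3 h exposure, all cells were held for 4 h in serum stripped with charcoal. The vehicle arrays received 0.1% ethanol, and the other arrays 1 µM estradiol, 1 µM estradiol with 10 µM tamoxifen, 1 µM of a conjugate of estradiol and bovine serum albumin (estradiol-BSA), or 1 µM estradiol-BSA with 10 µM tamoxifen. Estradiol is a steroid estrogen, the albumin conjugate is used to keep it outside the cell, and tamoxifen is a selective estrogen receptor modulator. The labels give no group with albumin alone or tamoxifen alone. The arrays that received free estradiol with tamoxifen are titled only as tamoxifen, and the A549 source names read A549-182. The labels do not mention replicate cultures, so every p-value below rests on how these arrays vary, and that variation may be technical. In the fit of line and treatment, it also includes any response to a treatment that differs between the lines.

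Type I MAGE genes lie on the X chromosome, and their proteins bind RING-type ubiquitin ligases and change what those enzymes mark. Peptides of MAGE and PRAME proteins are shown on HLA molecules, which makes them targets of tumour vaccines and of T-cell receptor therapy. DNA methylation of the promoter keeps these genes silent in most somatic cells, and loss of that methylation in tumours is a known route to their expression. PRAME lies on chromosome 22, holds leucine-rich repeats, recruits a CUL2 ubiquitin ligase and has been described as a repressor of retinoic acid receptor signalling.

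The promoters are shown because the MAGE genes divide into bright members (mean intensity above 20) and dim ones in HTB-182 and because promoter methylation is the regulation they are best known for. RefSeq windows (GRCh38.p14, 250 bases before to 50 after a start site) were held for 6 of the 8 genes, and MAGEA1 and MAGEA10 were not among them. The longest run of bases that the windows of all 5 MAGE genes share is 9 bases long and is written in capitals. The 150 bases that end just before the most upstream start site, on the + strand, are given for the bright genes MAGEA4 (chrX:151912324-151912473), MAGEA11 (chrX:149711910-149712059) and MAGEA12 (chrX:152733607-152733756), and for the dim genes MAGEA8 (chrX:149881033-149881182) and MAGEB2 (chrX:30215413-30215562).
MAGEA4: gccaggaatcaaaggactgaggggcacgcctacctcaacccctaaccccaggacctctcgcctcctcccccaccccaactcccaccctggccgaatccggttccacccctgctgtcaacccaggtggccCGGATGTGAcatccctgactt
MAGEA11: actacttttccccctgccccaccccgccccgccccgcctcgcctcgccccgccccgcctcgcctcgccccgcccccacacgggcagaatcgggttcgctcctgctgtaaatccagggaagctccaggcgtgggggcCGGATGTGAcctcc
MAGEA12: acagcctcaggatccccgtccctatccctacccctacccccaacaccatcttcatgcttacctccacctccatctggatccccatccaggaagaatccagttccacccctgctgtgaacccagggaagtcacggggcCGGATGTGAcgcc
MAGEA8: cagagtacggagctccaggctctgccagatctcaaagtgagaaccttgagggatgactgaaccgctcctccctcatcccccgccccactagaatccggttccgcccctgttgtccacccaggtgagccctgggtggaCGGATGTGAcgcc
MAGEB2: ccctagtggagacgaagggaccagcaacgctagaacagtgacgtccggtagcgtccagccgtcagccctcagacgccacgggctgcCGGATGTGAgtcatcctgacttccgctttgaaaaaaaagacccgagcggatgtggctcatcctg

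The shared run, CGGATGTGA, was present in each of the 5 windows of MAGEA4 and in each of the 2 windows of MAGEA12. It was searched on both strands and occurred in 78 of 35116 promoter windows of all genes (0.222%), which belong to 65 genes. Among the 23 genes named MAGEA, MAGEB or MAGEC that have a window, 9 held it. None of the 3 PRAME windows held it. The run began 13 to 64 bases before the start site in the most upstream windows. It was chosen as a run that all 5 MAGE genes hold, so it says nothing of bright against dim genes. CpG pairs, the sites of DNA methylation, numbered 21 in the most upstream 300-base window of MAGEA11, 10 in that of MAGEA4 and 9 in that of MAGEA12, beside 12 for MAGEA8, 21 for MAGEB2, 13 for PRAME and a median of 14 over all windows. The CpG counts of the bright MAGE genes (9 to 21) and of the dim ones (12 and 21) overlapped.

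In HTB-182, 5 of the 8 genes had a mean intensity above 20 (MAGEA1, MAGEA4, MAGEA11, MAGEA12 and PRAME), and in A549 only PRAME did. Over all probe sets tested, 53.6% were above 20 in HTB-182 and 55.3% in A549. MAGEA8, MAGEA10 and MAGEB2 were below 20 on all 10 arrays. The table carries no detection call, so an intensity of 20 is a working limit near the middle of each array's values (array medians from 17.5 to 21.4), and a value below it is not read as a level.

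MAGEA4, whose product is a target of engineered T cells, had an intensity of 3093 with vehicle, 1819 with estradiol, 2981 with estradiol and tamoxifen, 3065 with estradiol-BSA and 2625 with estradiol-BSA and tamoxifen in HTB-182. In A549 the same treatments gave 6.40, 5.01, 7.07, 8.81 and 6.12. The lowest HTB-182 array was the one with estradiol, and every HTB-182 array lay far above every A549 array. The mean was 2717 ± 535 (SD, n = 5) in HTB-182, at percentile 98.7 of that line's probe sets, and 6.68 ± 1.40 (SD, n = 5) in A549, at percentile 15.5. These are bulk samples, in which fewer cells with a transcript and less RNA per cell cannot be told apart.

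MAGEA11, which codes for a coregulator of the androgen receptor, had intensities of 637, 572, 501, 632 and 647 in HTB-182 in the same order of treatments. In A549 they were 11.5, 12.4, 10.2, 9.01 and 5.70. The HTB-182 arrays lay within a 1.29-fold range and none came near the A549 arrays. The means were 598 ± 61.5 and 9.76 ± 2.61 (SD, n = 5 arrays per line).

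MAGEA12, a close relative of MAGEA2, MAGEA3 and MAGEA6, had intensities of 365, 302, 357, 376 and 234 in HTB-182. In A549 they were 12.8, 11.4, 15.4, 14.4 and 12.9. The lowest HTB-182 array was the one with estradiol-BSA and tamoxifen, and the lines again did not overlap. The means were 327 ± 59.0 and 13.4 ± 1.54 (SD, n = 5 arrays per line).

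MAGEA1, the founding member of the family, had intensities of 72.8, 63.3, 83.6, 83.6 and 53.5 in HTB-182. In A549 it gave 8.61, 10.7, 23.7, 17.4 and 17.5, so 1 of 5 A549 arrays, the one with estradiol and tamoxifen, passed 20. The lines did not overlap. The means were 71.4 ± 13.1 and 15.6 ± 6.05 (SD, n = 5 arrays per line). The probe sets of MAGEA1 and MAGEA12 carry the manufacturer's suffix for probes that also match other sequences, so signal from related MAGE transcripts in them cannot be told apart from the named gene.

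PRAME ran the other way, higher in A549. In HTB-182 its intensities were 470, 397, 423, 492 and 445, and in A549 they were 861, 841, 671, 591 and 552. Every A549 array was above every HTB-182 array, yet the lowest A549 array was only slightly above the highest HTB-182 one. In A549 the order from high to low was vehicle, estradiol, estradiol with tamoxifen, estradiol-BSA and estradiol-BSA with tamoxifen, and with 1 array each the neighbours in that order have no spread to be set against. The means were 445 ± 37.5 and 703 ± 142 (SD, n = 5 arrays per line).

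The dim genes overlapped between the lines. MAGEA8 ranged from 5.99 to 9.59 in HTB-182 and from 7.10 to 11.02 in A549, MAGEA10 from 9.31 to 11.6 and from 9.91 to 12.5, and MAGEB2 from 5.73 to 6.82 and from 5.79 to 8.42. These ranges overlapped for each of the 3 genes. The shares of all probe sets with and without such an overlap between the lines were not counted. The separation of the bright genes above is therefore not set against that of other genes.

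**Figure D1:**
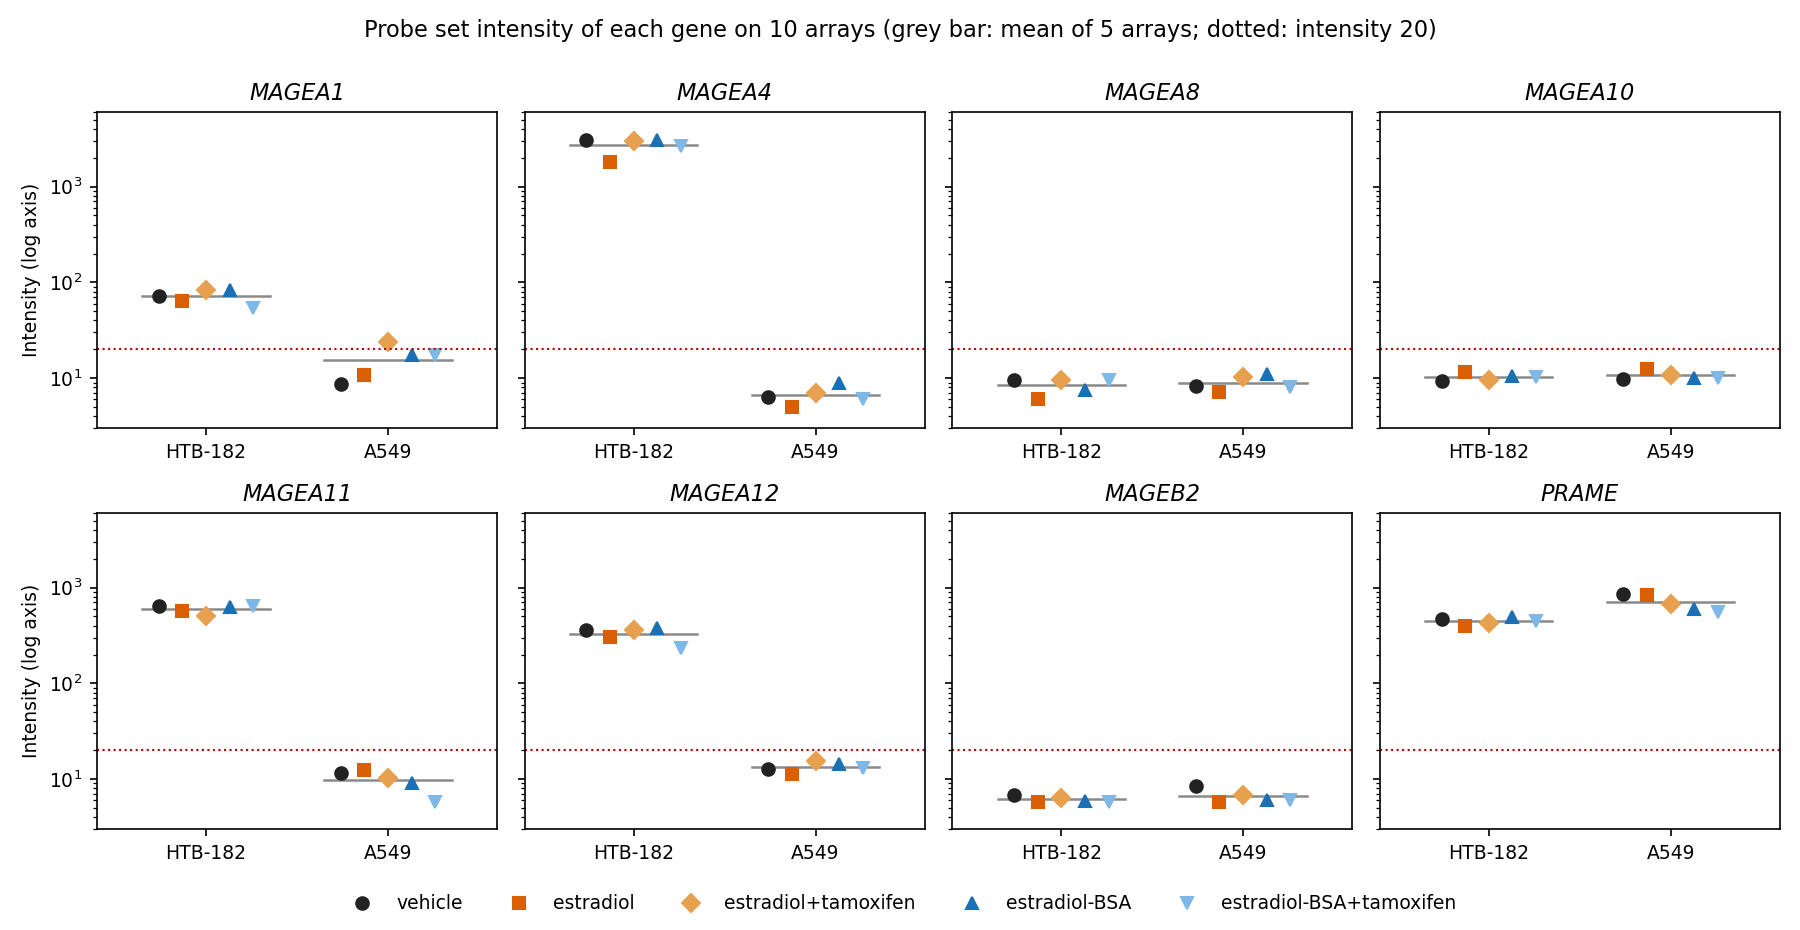
Intensity of the probe set of each of the 8 genes on a log axis, by cell line, with 1 point per array shaped and coloured by treatment; the grey bar is the mean of the 5 arrays of a line and the dotted line an intensity of 20. MAGEA4, MAGEA11, MAGEA12 and MAGEA1 sit high in HTB-182 and low in A549, PRAME lies between 397 and 861 on every array, and MAGEA8, MAGEA10 and MAGEB2 stay below 20.

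The difference between the lines was tested on log2(intensity + 16) over all 41091 probe sets, with the treatment as a block that pairs the arrays. A probe set was called where limma's moderated test gave a Benjamini-Hochberg adjusted p under 0.05. Of the 8 genes, 4 were called higher in HTB-182 and 1 was called higher in A549, where 21.1% and 21.5% of all probe sets were called in these directions. With a difference of at least 2 on the log2 scale as well, 3 of the 8 genes (MAGEA4, MAGEA11 and MAGEA12) were higher in HTB-182, against 1.58% of all probe sets. The genes were chosen with the line pattern of these data known, so these counts are a description.

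MAGEA4 was lower in A549 by a log2 difference of -6.89 ± 0.11 (SE; limma adjusted p = 2.19e-12). Its 5 pairs of arrays ran from -7.12 to -6.45. The difference of MAGEA11 was -4.57 ± 0.12 (adjusted p = 4.61e-11), with pairs from -4.93 to -4.30. MAGEA12 differed by -3.53 ± 0.11 (adjusted p = 3.55e-10), with pairs from -3.73 to -3.11. The A549 means of these genes lie under the working limit, so no fold is given, and the size of the difference is set in part by the added 16. With 1 or 64 added instead, MAGEA4 differed by -8.46 or -5.27, MAGEA11 by -5.83 or -3.16 and MAGEA12 by -4.50 or -2.32.

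The smaller difference of MAGEA1 was -1.48 ± 0.12 (adjusted p = 9.82e-07), with pairs from -1.85 to -1.05. Its A549 mean is also under the working limit, and it differed by -2.19 with 1 added, which would place it among the genes at 2 or more, and by -0.76 with 64 added. For these 4 genes HTB-182 was higher in 5 of 5 pairs. PRAME was higher in A549 by 0.62 ± 0.12 (1.54-fold, adjusted p = 0.00116) and in 5 of 5 pairs, from 0.26 with estradiol-BSA to 1.05 with estradiol. MAGEA8, MAGEA10 and MAGEB2 differed by 0.03 (95% interval -0.07 to 0.13), 0.02 (-0.07 to 0.11) and 0.03 (-0.03 to 0.09), with adjusted p-values of 0.668, 0.725 and 0.464. MAGEB2, though not called, was also higher in A549 in 5 of 5 pairs, from 0.00038 to 0.097. The share of all probe sets with 5 pairs of the same sign was not counted.

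**Figure D2:**
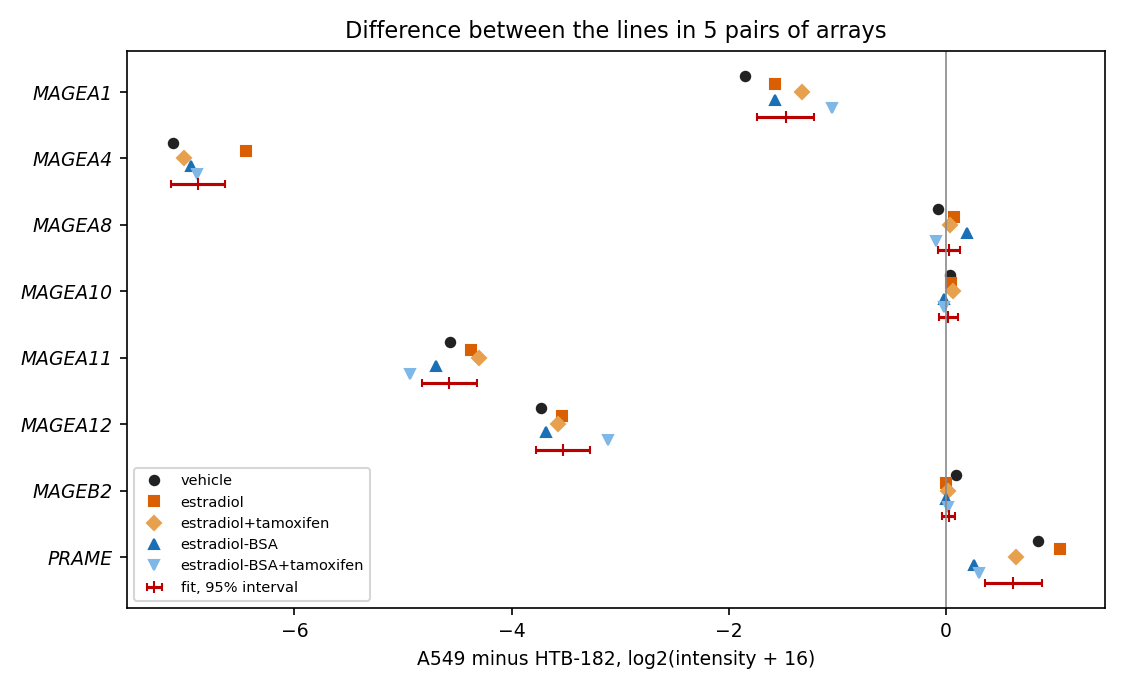
Difference A549 minus HTB-182 in log2(intensity + 16) for each gene, with 1 point per treatment and, in red, the estimate of the fit with its 95% interval. The 5 pairs of MAGEA4 lie between -7.12 and -6.45 and those of PRAME between 0.26 and 1.05. Those of MAGEA8 and MAGEA10 lie on both sides of 0, and those of MAGEB2 from 0.00038 to 0.097.

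The other type I MAGE genes gave a mixed picture. Of 20 such genes, 9 have a probe set of their own, and 8 of these were below 20 in both lines. MAGEA6, a partner of the ligase TRIM28, was the exception, at 3319 ± 171 in HTB-182 and 118 ± 31.6 in A549 (SD, n = 5 arrays per line), a called difference of -4.68. Its probe set carries the same suffix for probes that match other sequences, so these values may include related MAGE transcripts. MAGEB1 was called higher in A549 by 0.17, between means of 6.94 and 9.96, both under the working limit. The median difference of the 9 genes was -0.01, beside 0.01 over all probe sets.

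More MAGE genes are read by probe sets that name several near-identical genes. These were left out of the fit and are given as values. A probe set of MAGEA2 and MAGEA2B had means of 974 in HTB-182 and 11.4 in A549, and another for the same pair 303 and 6.12. MAGEA3 and MAGEA6 together gave 3734 and 163, so A549 was above 20 for these. A probe set of MAGEA9 and MAGEA9B gave 888 and 22.4. One that names the pseudogene MAGEA5P and a joined transcript gave 961 and 31.2, while the other with those names gave 10.8 and 10.5. The brighter of these and the probe set of MAGEA3 and MAGEA6 carry the suffix for probes that match other sequences. Their values may thus include related MAGE transcripts. CSAG2 and CSAG3, cancer-testis genes that sit among the MAGEA genes, gave 170 and 12.8. Among the 34 probe sets that name several cancer-testis genes, 6 were higher in HTB-182 by at least 2 (log2) and 1 was higher in A549 by as much, which names XAGE1A and XAGE1B (13.2 and 290).

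**Figure D3:**
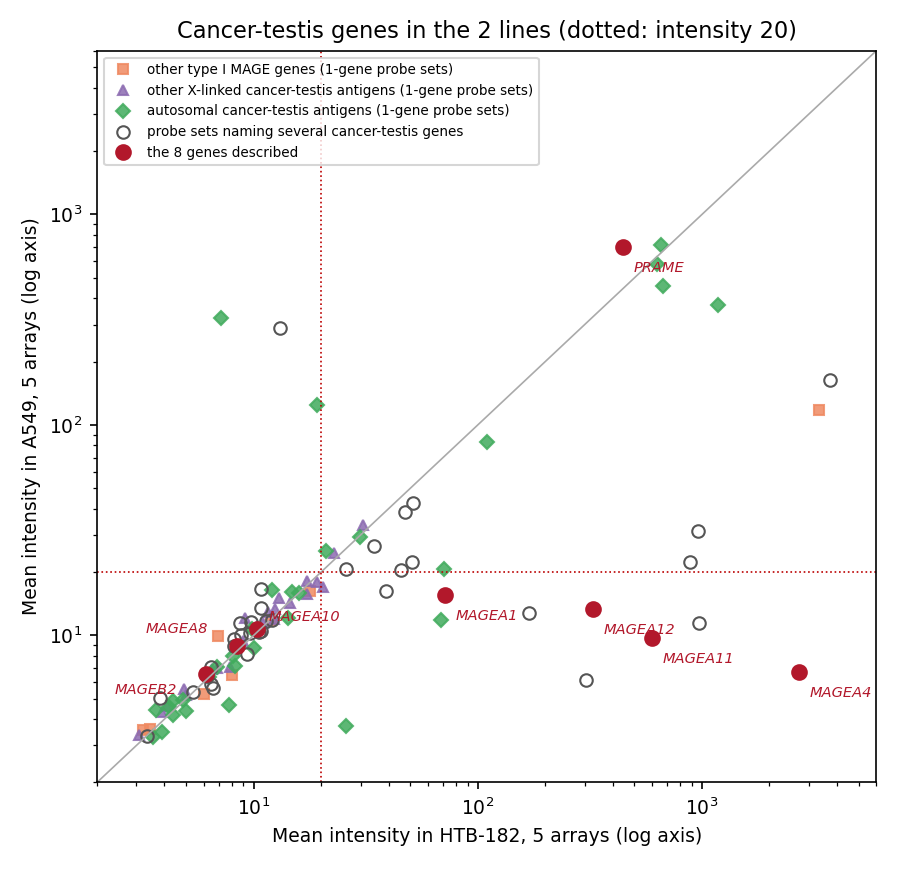
Mean intensity over 5 arrays in HTB-182 (x) and A549 (y), both on log axes, for the 8 genes (red), other cancer-testis genes with their own probe set (coloured by list) and probe sets naming several such genes (open circles). The line marks equal means and the dotted lines an intensity of 20. MAGEA4, MAGEA11, MAGEA12, MAGEA6 and the MAGEA2, MAGEA3, MAGEA9 and brighter MAGEA5P probe sets lie to the lower right. HORMAD1 and XAGE1 lie to the upper left.

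Cancer-testis genes outside the MAGE family that have probe sets of their own were mostly dim, and those called went in both directions. Of 23 other X-linked ones with a probe set of their own, 20 were below 20 in both lines, 0 were called higher in HTB-182 and 1 in A549, SPANXB1, by 0.16 between means of 9.13 and 12.1. SPANXB1 was singled out after its values were seen. Of 31 autosomal ones, 6 were called higher in HTB-182 and 2 in A549, beside 21.1% and 21.5% of all probe sets. The 2 were HORMAD1, a meiotic chromosome axis protein, at 7.16 in HTB-182 and 323 in A549 (a difference of 3.82), and SPA17, a sperm surface protein, at 19.1 and 124 (1.98). Among the 6 were OIP5, a centromere protein, at 1183 and 370 (-1.64), and ZNF165, a zinc finger protein, at 68.7 and 11.9 (-1.60). The median difference was 0.02 over the X-linked list and -0.01 over the autosomal one.

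Type II MAGE genes are read in many normal tissues. Among 9 measured, 2 were called higher in HTB-182 and 3 in A549, beside 21.1% and 21.5% of all probe sets. Of the 9, 7 were above 20 in HTB-182 and 6 in A549, and the shares called among probe sets above 20 were not counted. NDN, an imprinted gene, had means of 315 in HTB-182 and 7.37 in A549 (-3.82), and MAGEF1 281 and 94.3 (-1.43). MAGED1, an adaptor in neurotrophin signalling, was higher in A549 (688 and 1497, 1.10), as were MAGED2 (0.80) and NSMCE3, a subunit of the SMC5/6 complex (0.42), which falls outside the naming rule.

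Genes of DNA methylation, of its removal and of chromatin silencing were mostly higher in HTB-182. Of 26 measured, 18 were called higher there and 1, the histone demethylase KDM5B, in A549 (0.96). Of all probe sets, 21.1% and 21.5% were called in these directions. All 26 were above 20 in both lines, and the shares called among probe sets above 20 were not counted. KDM5B was named after its value was seen. The largest differences were those of UHRF1, which guides maintenance methylation (1963 in HTB-182 and 446 in A549, -2.11), EZH2, the methyltransferase of Polycomb (566 and 161, -1.73), TET3, which oxidises methylated cytosine (660 and 210, -1.59), and HELLS, a remodeller needed for methylation (718 and 296, -1.40). TET1 (-1.04), TET2 (-1.08) and TDG (-1.25), which like TET3 act in the removal of methylation, were also called higher in HTB-182. They were named after their values were seen. The median difference of the 26 was -0.82, beside 0.01 over all probe sets. Methylation itself was not measured, and its part in the MAGE pattern was not tested.

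Of 21 measured genes for proteins that MAGE or PRAME proteins bind or act through, 6 were called higher in HTB-182 and 7 in A549. Of all probe sets, 21.1% and 21.5% were called in these directions. Of the 21, 20 were above 20 in each line, and the shares called among probe sets above 20 were not counted. SKP2, a ligase substrate receptor, was higher in HTB-182 (2576 and 384, -2.70), as was USP7, a deubiquitinase (1952 and 705, -1.46). The retinoid receptors RARB (47.1 and 253, 2.09) and RXRA (84.1 and 282, 1.57) were higher in A549. RARG was also called higher there (0.39), and RARA was not called (0.14, limma adjusted p = 0.290). A link between these receptors and PRAME was not tested.

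The labelled origin of the lines was checked against marker genes. SOX2, a squamous lineage factor, was higher in HTB-182 (4152 and 135, -4.92), while the basal keratins and desmogleins that define squamous cells were weak in both (KRT5 at 22.1 and 26.1, DSG3 at 13.4 and 13.5). KRT7 was higher in A549 (18.1 and 3411, 6.64), as was KRT8 (703 and 3391, 2.24), while the lung adenocarcinoma factor NKX2-1 was below 20 in both (17.9 and 17.0) and the surfactant gene SFTPC was not called (48.0 and 41.6, adjusted p = 0.298). Squamous markers were called higher in HTB-182 for 3 of 12 genes (SOX2, CALML3 and DSC3) and in A549 for 1 (PERP), and alveolar and adenocarcinoma markers for 1 of 14 (ABCA3) and 7 of 14. Of all probe sets, 21.1% were called higher in HTB-182 and 21.5% in A549. DSC3 and ABCA3 were named after their values were seen.

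Markers of other cells were checked as well. Germ cell genes, with which cancer-testis antigens share their normal site of expression, had 12 of 18 members below 20 in both lines. Among these were the defining genes DDX4 (6.38 and 5.77) and DAZL (8.32 and 8.69). NANOS3 (33.0 and 36.4), PRM1 (28.9 and 29.3) and SOHLH1 (20.9 and 20.4), named after their values were seen, were above 20 in both lines. Over all probe sets tested, 53.6% were above 20 in HTB-182 and 55.3% in A549. The share below 20 in both was not counted. KIT, a receptor that germ cells share with other cells, was higher in HTB-182 (125 and 9.88, -2.32), as was ZBTB16 (29.7 and 8.52, -0.88) and, under the working limit, SYCP3 (4.80 and 3.80, -0.07). The summed intensity of that list ran from 279.9 to 398 in HTB-182 and from 201 to 266 in A549. KIT and ZBTB16 are part of that sum, and the median difference of the 18 genes was -0.001, beside 0.01 over all probe sets. Of 8 blood and endothelial markers, 3 were above 20 in HTB-182 and 4 in A549, and HBB stood at 65.2 and 64.9. HBB was named after its values were seen. Of these markers 1 was called, CD14, higher in A549 (10.6 and 82.2, 1.81). Of all probe sets, 21.5% were called higher there.

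MAGEA11, MAGEA8, MAGEA4, MAGEA10, MAGEA12 and MAGEA1 follow each other along the long arm of the X chromosome, among genes of other kinds. RefSeq lists 88 genes from MAGEA11 to MAGEA1, of which 38 are named by a probe set here. Of 17 that are not cancer-testis genes and have a probe set of their own, 6 were called higher in HTB-182 and 6 in A549. The shares of all probe sets were 21.1% and 21.5%. In HTB-182, 14 of the 17 were above 20, and the shares called among probe sets above 20 were not counted. None of the 17 was higher in HTB-182 by 2 or more on the log2 scale, beside 1.58% of all probe sets. Of the 17, 1 was higher in A549 by that much, ZNF185, an actin-binding protein (20.4 and 138, 2.03). Their median difference was 0.06. The largest in the direction of the MAGE genes was GABRA3, a GABA receptor subunit that lies between MAGEA10 and MAGEA12 (62.5 and 6.69, -1.77). ZNF185 and GABRA3 were picked after their values were seen. The large differences alternated with small ones along the segment, with the dim MAGEA8 and MAGEA10 lying between bright MAGE genes.

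**Figure D4:**
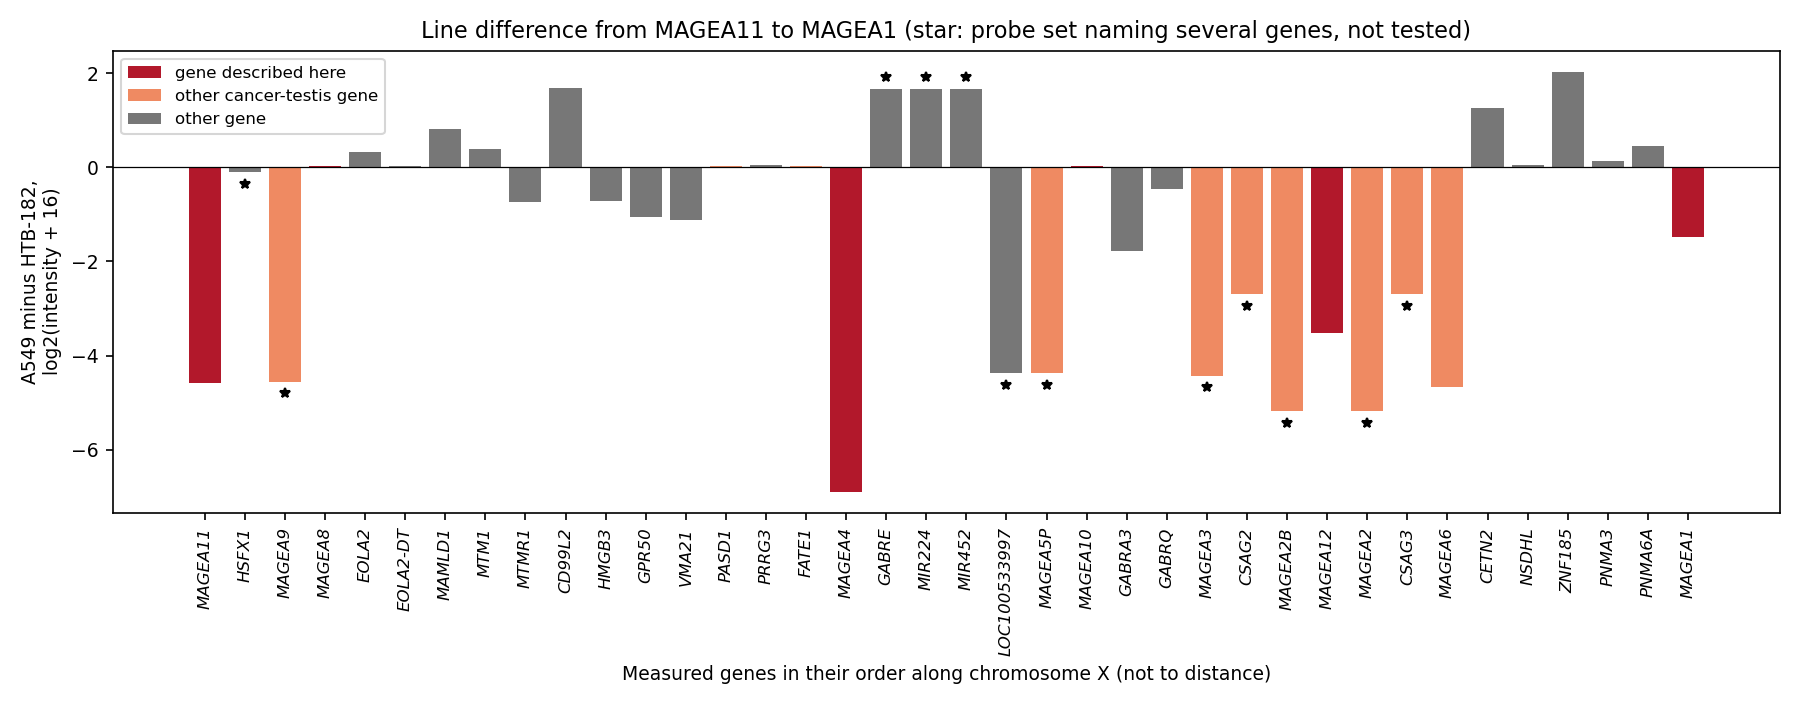
Difference A549 minus HTB-182 in log2(intensity + 16) for the 38 measured genes from MAGEA11 to MAGEA1 in their order on the X chromosome, spaced evenly and not by distance; a star marks a probe set that names several genes, some of which share 1 bar height because they share the probe set. Bars of the genes described reach -6.89 at MAGEA4, while the genes that are not cancer-testis genes and have their own probe sets run from -1.77 at GABRA3 to 2.03 at ZNF185. Each gene is drawn by its brightest probe set, so MAGEA5P stands at -4.37, while its other probe set gave -0.02.

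The genes whose pattern over the 10 arrays was closest to each strongly different gene, by Euclidean distance of log2(intensity + 16), are given as a description. For MAGEA4 they were MAL2 (distance 0.79), PTPRZ1 (0.81) and PTX3 (0.98), with HTB-182 means of 3064, 2855 and 3329 and A549 means of 5.39, 4.39 and 4.49. For MAGEA11 they were KCNQ5 (0.65), CRYBG1 (0.66) and FGF19 (0.76). For MAGEA12 they were CELF2 (0.51), DNAH9 (0.57) and PROX1 (0.73). No gene among these is a cancer-testis gene of the lists used here.

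The study asked how estradiol and estradiol-BSA act in these lines and what tamoxifen does to that. In the additive fit of line and treatment, with 4 residual degrees of freedom, 0% of the 41091 probe sets, and so 0 of the 8 genes, were called for estradiol against vehicle, estradiol-BSA against vehicle, estradiol-BSA against estradiol, either combination with tamoxifen against vehicle, or tamoxifen over both estrogens. The unadjusted p was under 0.05 for 2507, 2637, 1457, 1885, 3206 and 801 probe sets in these comparisons, where estradiol-BSA with tamoxifen is the one with 3206. Without the HTB-182 vehicle array, when vehicle is the A549 array alone, from 2456 to 3728 probe sets were called in the comparisons against vehicle, and 0 of them were of the 8 genes. These comparisons share the 2 vehicle arrays.

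The compounds were compared at the same dose and time as 1 pair. MAGEA4 had the largest difference among the 8 genes between estradiol-BSA and free estradiol, 0.49 ± 0.18 (95% interval 0.10 to 0.88, limma adjusted p = 0.999), made up of 0.75 in HTB-182, where it is bright, and 0.24 in A549, where it is not. For MAGEA1 the difference was 0.33 (-0.09 to 0.74), for MAGEA12 0.22 (-0.17 to 0.62), for MAGEA11 -0.02 (-0.42 to 0.38) and for PRAME -0.10 (-0.52 to 0.32). PRAME differed by 0.30 in HTB-182 and by -0.50 in A549. None passed the test, and the intervals leave room for differences in either direction for MAGEA1, MAGEA12, MAGEA11 and PRAME. At an unadjusted p under 0.05 stood MAGEA4 and the dim MAGEA8.

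Tamoxifen over both estrogens gave differences from -0.12 (MAGEA11, 95% interval -0.40 to 0.17) to 0.11 (MAGEA4, -0.16 to 0.39) among the 8 genes, none with an unadjusted p under 0.05. PRAME stood at -0.12 (-0.41 to 0.18). With a term for the line, with 3 residual degrees of freedom, tamoxifen gave 0% called in HTB-182, in A549 and for the difference between them, at an unadjusted p under 0.05 for 812, 1042 and 905 probe sets. PRAME differed by 0.01 ± 0.18 in HTB-182 and -0.24 ± 0.18 in A549 (SE), and MAGEA4 by 0.17 ± 0.18 in HTB-182. MAGEA1 had the largest difference between the lines among the 8 genes, 0.48 ± 0.21 (limma adjusted p = 0.994).

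A further fit with 2 residual degrees of freedom asked whether estrogen without tamoxifen, against vehicle, acted differently in the lines. It called 431 of 41091 probe sets (1.05%) and 0 of the 8 genes, whose smallest adjusted p was 0.42 (MAGEA8). MAGEA4 stood at 0.41 ± 0.29 and PRAME at -0.20 ± 0.31. This term rests on 1 vehicle array per line, and its count was 0 without the intensity trend and from 478 to 1427 with 1 array left out, 0 of them of the 8 genes. It reached 1340 or more without any 1 of the estradiol arrays or of the arrays with tamoxifen, in either line.

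Single arrays showed the sizes behind these tests, with no replicate and no p. In HTB-182, MAGEA4 was lower by a log2 difference of -0.76 with estradiol, and by -0.05, -0.01 and -0.24 with estradiol and tamoxifen, estradiol-BSA, and estradiol-BSA and tamoxifen. MAGEA12 differed from vehicle by -0.26, -0.03, 0.04 and -0.61 in that order, MAGEA1 by -0.16, 0.16, 0.16 and -0.35, MAGEA11 by -0.15, -0.34, -0.01 and 0.02, and PRAME by -0.24, -0.15, 0.06 and -0.08. The array with estradiol was thus below vehicle for all 5 bright genes. Its median difference over all probe sets above 20 was also below 0 (-0.02), against 0.01 to 0.04 on the other treated HTB-182 arrays. The share of those probe sets below vehicle was not counted. Among the 5 bright genes, MAGEA4 with estradiol and MAGEA12 with estradiol-BSA and tamoxifen were at least 1.5-fold apart from vehicle.

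Among probe sets above 20 in HTB-182, 0.527% were at least 1.5-fold from vehicle with estradiol, 0.527% with estradiol and tamoxifen, 0.631% with estradiol-BSA and 1.79% with estradiol-BSA and tamoxifen, and on the last array 340 of 395 such probe sets were lower. The medians of the arrays' differences from vehicle in HTB-182 lay between -0.02 and 0.04.

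In A549 the only bright gene, PRAME, differed from vehicle by -0.03 with estradiol, -0.35 with estradiol and tamoxifen, -0.53 with estradiol-BSA and -0.63 with estradiol-BSA and tamoxifen, the last at least 1.5-fold. All 4 treated arrays were below vehicle. At least 1.5-fold from vehicle were 9.21%, 12.2%, 17.6% and 18.1% of the probe sets above 20 in A549 in that order, and the medians of the differences lay between -0.18 and -0.08. The A549 vehicle array stood apart, with 486 probe sets that differed 2-fold or more from the average over its line's other arrays, 468 of them lower, against 39 to 77 on the other A549 arrays and 0 to 18 on those of HTB-182. Its part in the PRAME order was not tested. Without it the line difference of PRAME was 0.56 (limma adjusted p = 0.00146).

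**Figure D5:**
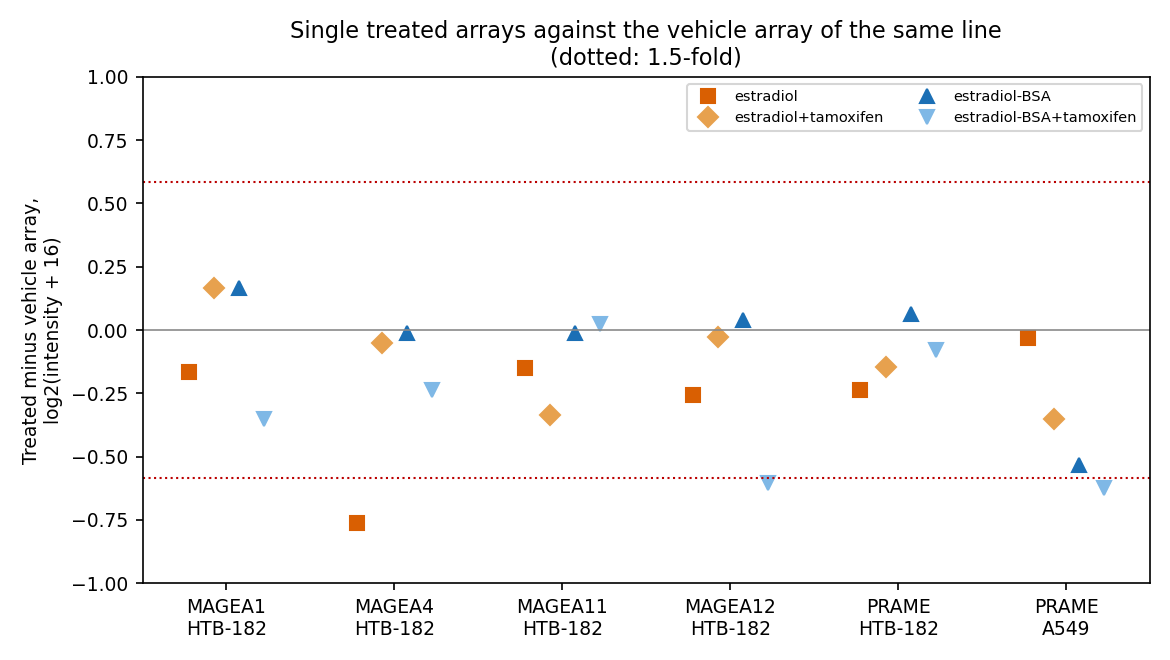
Difference of each treated array from the vehicle array of its line, in log2(intensity + 16), for the genes above 20 in that line, with 1 point per treatment and dotted lines at 1.5-fold. The lowest points are MAGEA4 with estradiol in HTB-182 (-0.76), PRAME with estradiol-BSA and tamoxifen in A549 (-0.63) and MAGEA12 with that treatment in HTB-182 (-0.61), and the highest are those of MAGEA1 in HTB-182 at 0.16.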

How the data were processed

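The authors deposited 1 table for the series with an intensity per probe set and array on a linear scale. The submitters' processing notes name MAS5 and no other program, and the version and scaling target were not given in the sources used here. Exactly equal values on 2 or more arrays occurred in 5.93% of the probe sets tested, among them those of MAGEA1, MAGEA10 and MAGEB2, and how they arose was not tested. Of 54675 probe sets, 62 controls, 1801 that name several genes and 11721 without a name here were not tested; 41037 of the 41091 that name 1 gene were in the RefSeq gene table, with 0 symbols changed. Samples were grouped by the line and treatment in their labels, with 1 array per group.

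The values were transformed as log2(intensity + 16), with no filter on low values, and fitted with limma 3.58.1 in R 4.3.3 (trend = TRUE, Benjamini-Hochberg at 0.05 over all probe sets). The fits held line and treatment, then also line by tamoxifen, then also line by estrogen. On simulated data the line difference recovered 94% of changes of 1 and 99% of changes of 2 on the log2 scale, and tamoxifen 88% and 97%. The simulated noise was independent between arrays, few probe sets were changed, and no other line or treatment effect was present. These rates are therefore not the sensitivity of the tests on the real arrays, where single arrays moved the counts. The genes and lists were chosen with earlier results of these data known. Named were all 8 genes, up to 4 called genes of each list with 5 of 5 pairs alike, and the 3 genes nearest to each gene with a difference of at least 2; a list gene was read by its brightest probe set. Alternatives were other pseudocounts, scaling, quantile normalization, a filter on low values, 1 probe set per gene, no trend, array weights, no treatment block, other limits of intensity, and each array left out in turn.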

Additional observations from a re-analysis of the deposited data

How the results depend on the processing

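Under all 19 alternatives tried, the same 5 genes were called between the lines, each in the direction given. The filter on low values removed MAGEA8, MAGEA10 and MAGEB2. MAGEA1, MAGEA4, MAGEA11 and MAGEA12 passed it only through their HTB-182 values. That setting is therefore no check on how many of the 8 genes are called. PRAME ran from 0.51 to 0.71 (adjusted p from 0.000324 to 0.00907). With 1 probe set per gene, 9385 were called in place of 17481, since fewer were tested. With no treatment block, which leaves the arrays unpaired, PRAME stayed at 0.62 (adjusted p = 0.000516). No paired analysis by replicate number was possible because each group holds 1 array. At a limit of 15, 2 genes were detected in A549 (MAGEA1 was added).

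None of the 8 genes was called for a treatment under any alternative fitted. Leaving out 1 array at a time gave 0 to 2456 called probe sets for estradiol, 0 to 2692 with tamoxifen, 0 to 3416 for estradiol-BSA and 0 to 3728 with tamoxifen, each highest without the HTB-182 vehicle array. It gave 0 to 2 for estradiol-BSA against estradiol, 0 to 2 for tamoxifen in HTB-182, 0 to 22 in A549 (22 without the A549 estradiol-BSA array), 0 to 8 for line by tamoxifen and 478 to 1427 for line by estrogen, which had 0 with no trend and no value without either vehicle array; the cause was not tested.

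Small differences turned sign. MAGEA11 between the estrogens was 0.033 with a pseudocount of 64 and from -0.15 to 0.11 with 1 array left out, PRAME from -0.37 to 0.17, and the line difference of MAGEA8 from -0.013 to 0.058. Tamoxifen in HTB-182 gave PRAME -0.0062 after scaling and from -0.20 to 0.30 with 1 array left out, MAGEA11 from -0.40 to 0.23, MAGEA12 from -0.46 to 0.0028 and MAGEA4 from -0.071 to 0.25. The alternatives for single arrays within a line (pseudocounts 1 and 64, scaling) were chosen after seeing the data and gave 2 to 3 values at least 1.5-fold from vehicle. With 1 array per group, the number of arrays limits the precision.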
